A study of Mus musculus with 20 samples.

Results

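The genes of the respiratory chain were followed in mouse ileum across 4 groups, with the subunit genes of the nucleus set beside those of mitochondrial DNA. Members were all genes of the gene count table whose symbols begin with Nduf followed by a, b, c, s or v and a number, with Uqcr, Cox4 to Cox8 or Atp5, or with mt-Nd, mt-Co, mt-Cyt or mt-Atp, together with Sdha, Sdhb, Sdhc and Sdhd. Of 35204 genes in the table, 101 were members once 9 symbols carrying -ps, the mark of a pseudogene, were left out. They comprised 88 nuclear genes and the 13 protein-coding genes of mitochondrial DNA, called mt- members below. By name, 40 nuclear members and 7 mt- members belong to complex I, 4 nuclear members to complex II, 8 nuclear and 1 mt- to complex III, 19 nuclear and 3 mt- to complex IV, and 17 nuclear and 2 mt- to complex V.

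Ileal tissue came from female C57BL/6 mice, 7 weeks old, that were specific-pathogen-free (SPF) or treated with antibiotics (ABX) and fed for 3 weeks either a defined amino acid diet (control diet, CD) or the same diet lacking tryptophan (Trp-deficient diet, TDD). The antibiotics were ampicillin, vancomycin, metronidazole, neomycin and gentamycin in the drinking water. There were 20 libraries, 1 per mouse and 5 per group: CD and TDD for SPF mice, and for ABX-treated mice the same diets, called CD with ABX or TDD with ABX. A library is a piece of whole ileal wall 0.5 cm long, so epithelium, muscle and immune cells were sequenced together.

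The respiratory chain sits in the inner mitochondrial membrane. Complex I (NADH dehydrogenase) and complex II (succinate dehydrogenase) pass electrons to ubiquinone, complex III passes them on to cytochrome c, and complex IV (cytochrome c oxidase) to oxygen. The proton gradient built on the way drives complex V, the ATP synthase. Complex II is made of nuclear subunits alone, whereas the other complexes combine subunits from both genomes: the nuclear mRNAs are transcribed in the nucleus and translated in the cytosol, and the mt- mRNAs are cut from long transcripts of mitochondrial DNA and translated inside the organelle. In the intestine, absorptive epithelium and the smooth muscle of the wall are both rich in mitochondria.

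Library totals ran from 36676963 to 58662617 estimated counts, and the scaling factors (trimmed mean of M-values, TMM) from 0.904 to 1.15, the highest in CD mouse 2. That mouse also had the lowest summed level of 10 enterocyte markers (22341 CPM, counts scaled to a common library size, against 32712 to 51561 CPM in the other 19). Fabp6 and Slc10a2, which define ileal enterocytes, summed to only 1.70 to 9.85 CPM in SPF mice and to 16.6 to 182 CPM in ABX-treated mice, a low level for tissue labelled ileum. The 6 smooth muscle markers ranged from 472 to 2508 CPM in CD and from 659 to 1993 CPM in TDD, overlapping widely. Pancreatic acinar markers reached 125 CPM in CD mouse 5 and stayed below 1 CPM elsewhere. The 6 B cell markers summed to a median of 6.81 CPM in CD (4.97 to 97.6), 102 CPM in TDD (5.27 to 150), 5.39 CPM in CD with ABX (2.999 to 8.32) and 12.1 CPM in TDD with ABX (4.14 to 105). The 5 T cell markers summed to 23.2 to 79.4 CPM in CD, 21.4 to 30.9 CPM in TDD, 12.2 to 15.8 CPM in CD with ABX and 10.7 to 21.35 CPM in TDD with ABX, so that ABX-treated mice lay below SPF mice on each diet, on TDD by a narrow margin. The part of these differences in the results was not tested beyond leaving out each mouse in turn.

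Transcripts of the mt- members were by far the most abundant of the chain. On a scale corrected for length (TPM, transcript abundance scaled to a common total, summed per gene), the median level over 20 mice was 31284 TPM for mt-Atp8 and 18752 TPM for mt-Atp6 (subunits of the membrane part of ATP synthase), 20162 TPM for mt-Co1, 13670 TPM for mt-Co3 and 11028 TPM for mt-Co2 (the catalytic core of complex IV), and 9854 TPM for mt-Cytb (the cytochrome b of complex III). mt-Atp8 (204 bases, chrM:7766-7969) and mt-Atp6 (681 bases, chrM:7927-8607) overlap, and without the length correction their medians were 1648 and 7795 CPM. Their order in TPM therefore rests on that correction. The complex I genes had lower TPM, from 7991 TPM for mt-Nd1 to 667 TPM for mt-Nd3 and 84.5 TPM for mt-Nd6. The value of mt-Nd3 leaves out reads given to a copy, with which its median level was 5.77 times higher. mt-Nd6 is the only mt- member on the opposite strand of mitochondrial DNA (chrM:13552-14070, minus strand, GRCm38). Its end overlaps that of mt-Nd5 (chrM:11742-13565, plus strand), and whether the counting used strand is not given in the sources used here. Nuclear members had a median of 230 TPM and mt- members one of 7991 TPM.

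The highest nuclear member was Atp5b (1342 TPM), which encodes the catalytic beta subunit of ATP synthase and is present in several copies per enzyme. It was followed in the other complexes by Cox4i1 (931 TPM, complex IV), Uqcrh (812 TPM, the hinge protein of complex III), Ndufa4 (467 TPM, named for complex I but a subunit of complex IV) and Sdhd (340 TPM, a membrane anchor of complex II). Medians over the tested nuclear members were 146 TPM in complex I, 268 TPM in complex II, 411 TPM in complex III, and 465 TPM in complexes IV and V.

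**Figure D1:**
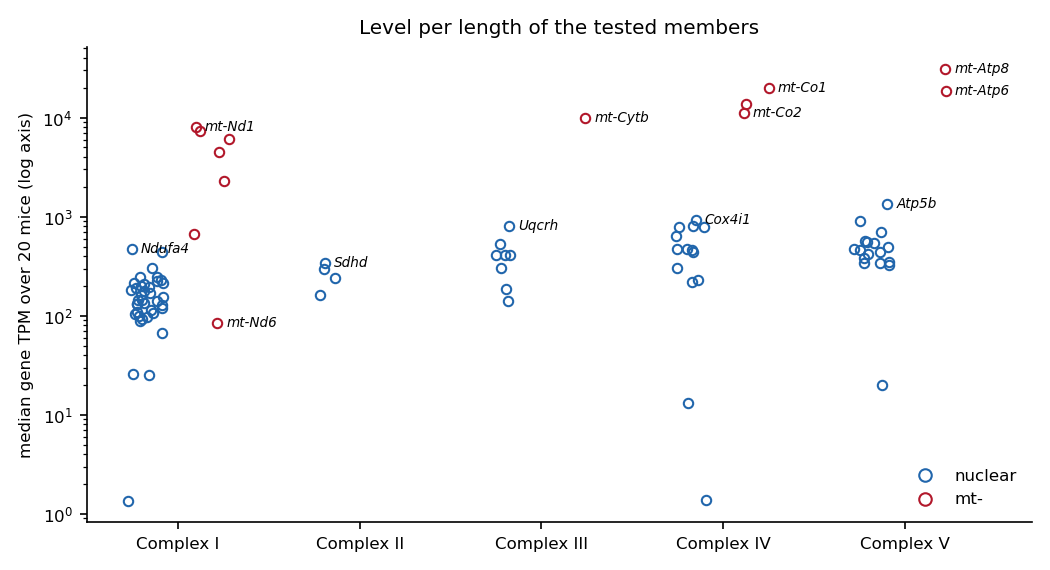
Median gene TPM over 20 mice of each tested member (log axis), by complex, with nuclear members in blue and mt- members in red. All mt- members but mt-Nd3 and mt-Nd6 lie above the highest nuclear member, Atp5b at 1342 TPM.

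The mt- counts carry a limit of their own. Mouse nuclear DNA holds pseudogene copies of stretches of mitochondrial DNA, and an aligner divides reads that match both. Of the 31-base words of each mt- transcript, every word of mt-Co2 occurs in another annotated gene, as do 99.9% of those of mt-Co3, 99.5% of mt-Atp6, 98.9% of mt-Nd4l and 98.1% of mt-Nd3, against 0% of mt-Nd1 and 7.36% of mt-Nd6. The deposited counts divide accordingly. The copy Gm28661 held a median of 208844.5 counts per mouse beside 214283 for mt-Co2, and Gm28438 held 22013 beside 4159.5 for mt-Nd3. With the copies added, the median level was 1.99 times higher for mt-Co2 and 5.77 times higher for mt-Nd3, and at most 1.14 times higher for the other mt- members. Among nuclear members, Ndufb4 shares words with Ndufb4c, a processed pseudogene that is itself a member by name and was given more reads (a median of 2026.5 counts against 574.5), and Atp5g2 shares words with Gm10175.

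Of the 101 members, 94 reached 0.5 CPM in at least 1 mouse and were tested, all 13 mt- members and 81 nuclear members. The other 7 were Cox6a2, Cox7b2, Cox8b and Cox8c, isoforms of heart, muscle or testis, and the pseudogenes Cox6c2, Ndufa11b and Ndufs6b. None of the 7 exceeded 20 counts in any mouse, and Cox8c had 0 in all 20, which allows up to 3 counts per library.

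Averaged over members, nuclear transcripts were lowest in TDD, mt- transcripts were lowest in TDD with ABX, and the distance between the genomes was widest in SPF mice fed TDD, although mice of different groups overlapped in each measure. For each mouse, log2(CPM + 1) was averaged over the 81 tested nuclear members and over the 13 mt- members. The nuclear mean was 6.73 ± 0.08 in CD (SD, n = 5), 6.58 ± 0.12 in TDD, 6.69 ± 0.12 in CD with ABX and 6.63 ± 0.06 in TDD with ABX. The mt- mean was 11.14 ± 0.18, 11.25 ± 0.12, 11.13 ± 0.12 and 11.00 ± 0.08 in the same order. These values describe the members and were given no test.

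In CD the mt- mean exceeded the nuclear mean by 4.58, 4.33, 4.42, 4.52 and 4.19 log2 units in mice 1 to 5. In TDD the excess was 4.56, 4.49, 4.72, 4.78 and 4.80. The TDD mice thus stood 0.26 above CD on average, with 3 of 5 above all CD mice and the groups overlapping. Under ABX the excess was 4.57, 4.43, 4.49, 4.36 and 4.33 on CD and 4.43, 4.497, 4.34, 4.26 and 4.32 on TDD, a difference of -0.07 with overlap. On TDD the excess differed by -0.30 with ABX, where 4 of 5 ABX-treated mice lay below all SPF mice, and on CD by 0.03, with overlap. Each difference is a log2 difference of geometric means, and it does not depend on how the libraries were scaled except through the pseudocount.

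**Figure D2:**
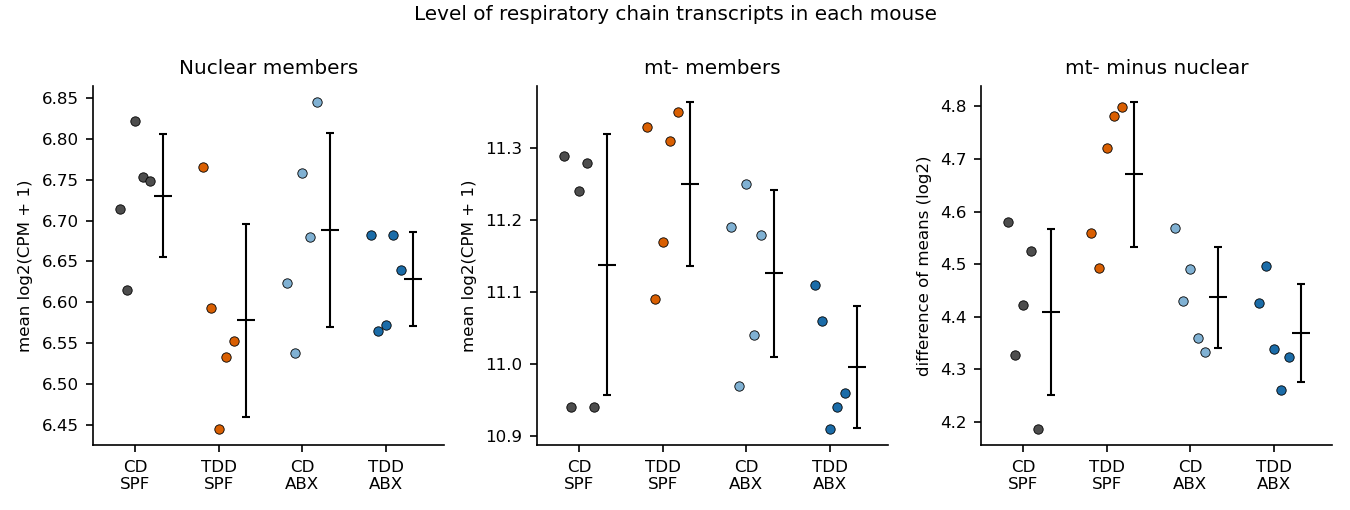
Mean log2(CPM + 1) over 81 nuclear members, over 13 mt- members, and the difference between both, 1 point per mouse, with the mean and SD of each group at its right. SPF mice on TDD have the lowest group mean for nuclear members (6.58) and the highest for the difference (4.67), while single mice overlap between groups.

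As a share of all counts in the library, which uses no scaling, nuclear members made up 1.43% to 1.54% in CD and 1.24% to 1.39% in TDD, and these ranges did not overlap. Under ABX the shares were 1.31% to 1.54% on CD and 1.31% to 1.46% on TDD, and overlapped. The mt- members made up 6.24% to 7.78% of counts in CD, 6.78% to 8.14% in TDD, 6.28% to 7.85% in CD with ABX and 5.96% to 6.69% in TDD with ABX. The share of mt- members was lower in all 5 ABX-treated mice on TDD than in any SPF mouse on TDD. In CD mouse 2 the nuclear share was among the highest of the group (1.53%), while its scaled nuclear mean was the lowest (6.62).

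In SPF mice, part of the nuclear chain was lower on TDD than on CD, and no mt- member passed the test. This comparison asks what the loss of dietary Trp does when the microbiota is present. Of 81 nuclear members, 19 were lower and 0 higher at an adjusted p (q) under 0.05 in edgeR's quasi-likelihood test, where 7.71% of the 16306 genes tested were called lower and 6.65% higher. The median nuclear log2 fold change was -0.16, with 73 of 81 below 0, beside a median of 0.01 over all genes tested. No member changed by 2-fold, here or in the other comparisons, where 1.83% of genes were called with at least a 2-fold change for the diet in SPF mice, 0.307% for the diet under ABX, 2.25% for ABX on CD, 1.63% for ABX on TDD and 0.0245% for the interaction. Of the mt- members, 0 were called by edgeR or by any other tool tried, 3 had an unadjusted p under 0.05 (4625 of the 16306 genes did), and their median log2 fold change was 0.07. B cell markers were higher in 4 of the 5 TDD mice (69.1 to 150 CPM) and in 2 of the 5 CD mice (67.0 and 97.6 CPM) than in the rest of both groups, with 0 of the 6 markers called. The goblet cell marker Clca1 was lower on TDD (log2 fold change -0.98, q = 0.000619) and the Paneth cell marker Mmp7 higher (0.84, q = 0.0184). The other goblet and Paneth cell markers did not pass. The part of these cell types in the result was not tested. In whole tissue, fewer cells of a type that is rich in a transcript and less of it per cell cannot be told apart.

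By complex the numbers called were small, and differences between complexes were not tested. In complex I, 10 of 38 tested nuclear members fell, in complex III 1 of 8, in complex IV 4 of 14 and in complex V 4 of 17, while 0 of the 4 subunits of complex II were called (lowest log2 fold change -0.16). Median log2 fold changes were -0.16, -0.18, -0.15 and -0.14 in complexes I, III, IV and V and -0.10 in complex II. Within complex I, 1 of the 7 core subunits encoded in the nucleus fell (Ndufs8), and 9 of 31 accessory subunits and other members did. The core list was drawn up after the values had been seen.

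**Figure D3:**
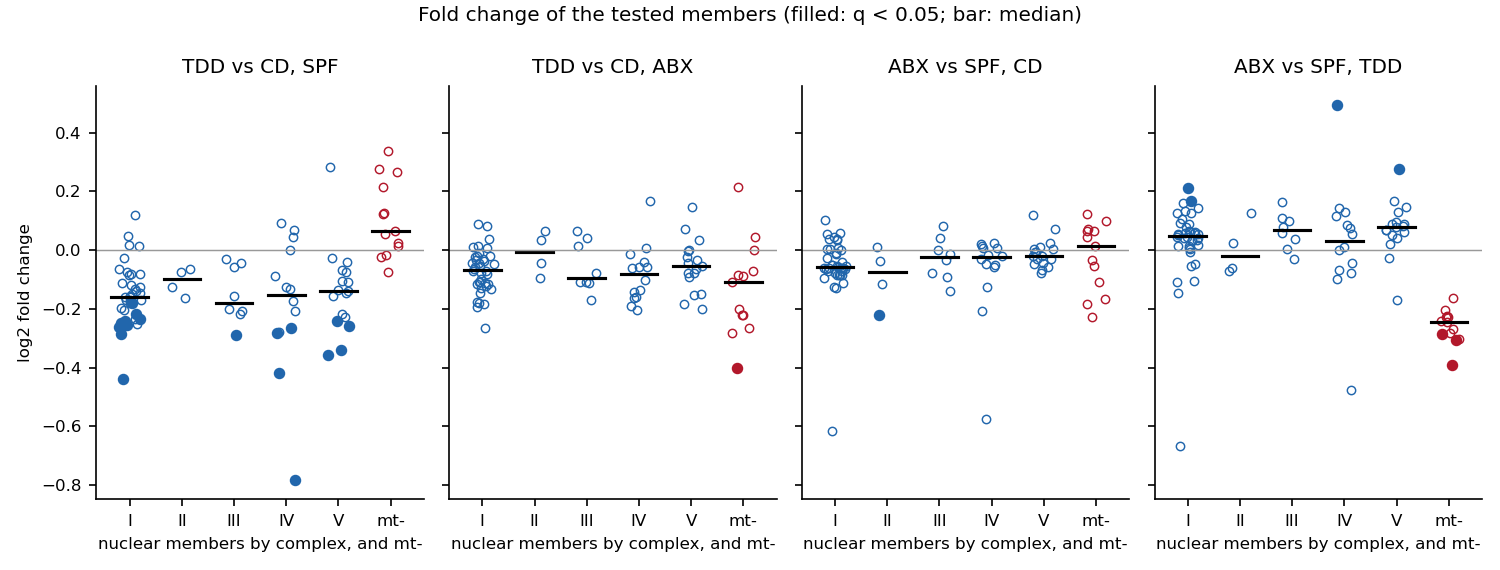
Log2 fold change of each tested member in the 4 comparisons, nuclear members by complex in blue and mt- members in red, filled where q was under 0.05, with a bar at each median. In SPF mice the nuclear medians lie between -0.18 and -0.10 and the mt- median at 0.07, and on TDD all 13 mt- members lie below 0 with ABX.

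Cox7a1 (ENSMUSG00000074218.3, chr7:30184144-30186078, plus strand, GRCm38), the heart and muscle isoform of subunit VIIa of complex IV, fell the most. Its level was 45.9, 33.4, 53.7, 55.3 and 55.2 CPM in CD and 31.2, 25.7, 22.7, 28.8 and 32.9 CPM in TDD, so that every TDD mouse was below every CD mouse. The log2 fold change was -0.78 ± 0.14 (SE, q = 0.00103). The 6 smooth muscle markers had large errors and did not pass. Their log2 fold changes ranged from -0.23 ± 0.43 (Cnn1, q = 0.78) to 0.02 ± 0.35 (Tagln, q = 0.978). Cnn1, Des (-0.17) and Acta2 (-0.12) were below 0, and Myh11 (0.01), Actg2 (0.00) and Tagln were at or just above it. The part of muscle content in the fall of Cox7a1 was not tested.

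Ndufb4 (chr16:37647170-37654453, minus strand), an accessory subunit in the membrane arm of complex I, measured 14.6, 13.2, 14.7, 14.4 and 13.6 CPM in CD and 13.03, 9.97, 10.1, 9.28 and 9.72 CPM in TDD. The groups did not overlap, TDD mouse 1 lying just under the lowest CD mouse, and the log2 fold change was -0.44 ± 0.09 (q = 0.00428). Its pseudogene copy Ndufb4c went from 37.1 to 49.9 CPM in CD and from 37.1 to 45.6 CPM in TDD, with a log2 fold change of -0.20 and q = 0.0575. With both summed, the fall of Ndufb4 was smaller, -0.26, and still called.

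Cox6a1 (chr5:115345642-115348981, minus strand), the isoform of subunit VIa found outside heart and muscle, measured 315, 256, 331, 323 and 321 CPM in CD and 269, 210, 211, 239 and 229 CPM in TDD. CD mouse 2 was the only CD mouse within the TDD range, and the log2 fold change was -0.42 ± 0.09 (q = 0.00593). The remaining large falls were in the ATP synthase. Atp5k, the e subunit of its membrane part, measured 75.5, 72.4, 83.5, 83.5 and 90.0 CPM in CD and 74.7, 67.2, 50.02, 61.0 and 63.0 CPM in TDD (log2 fold change -0.36 ± 0.09, q = 0.0118), with TDD mouse 1 within the CD range. Atp5j2, the f subunit, measured 156, 144, 168, 158 and 159 CPM in CD and 143, 128, 105, 121 and 121 CPM in TDD, with no overlap (-0.34 ± 0.08, q = 0.00808).

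**Figure D4:**
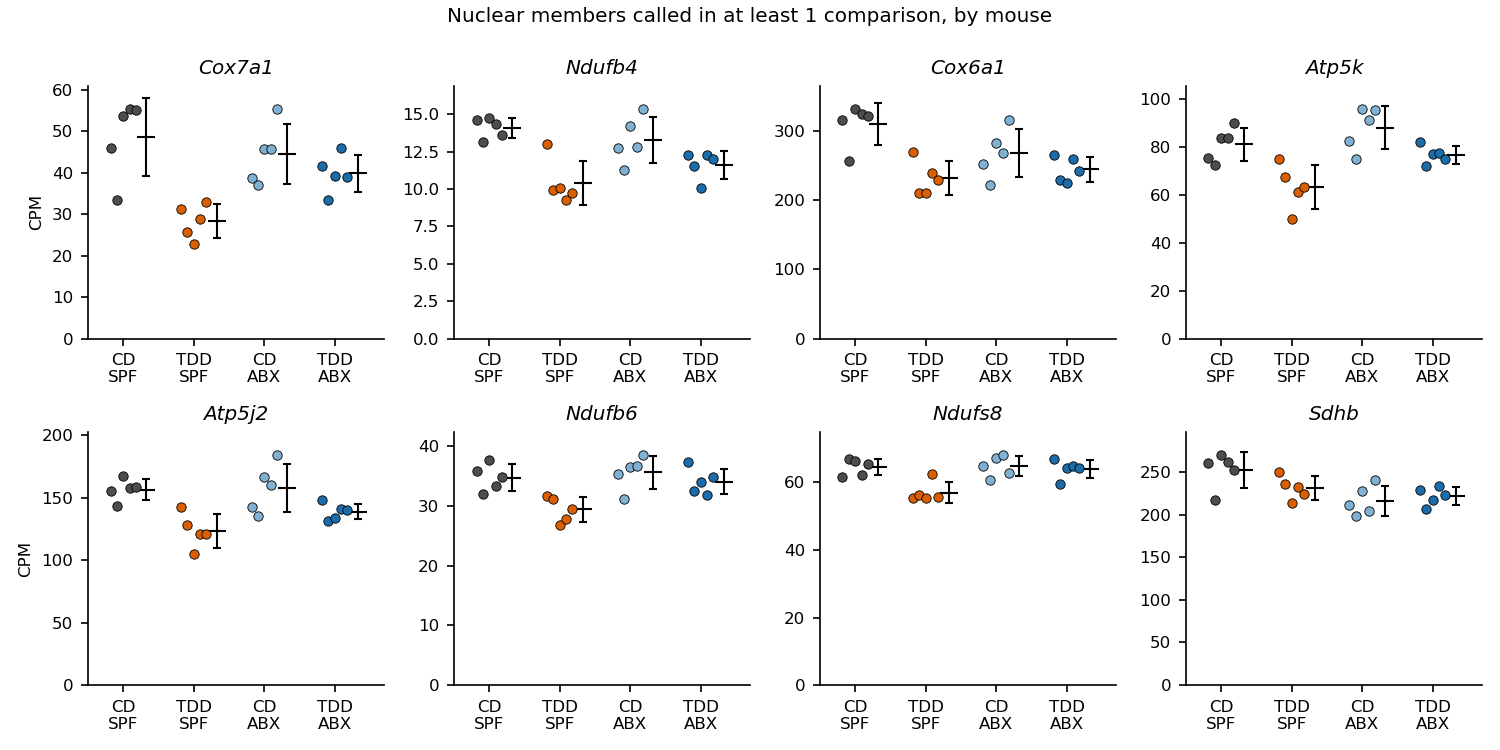
CPM in each mouse of 8 nuclear members that passed the test in at least 1 of the 4 comparisons, with the mean and SD of each group at its right and the axis from 0. Cox7a1, Ndufb4, Atp5j2 and Ndufb6 do not overlap between CD and TDD in SPF mice.

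The other 14 members that fell had log2 fold changes between -0.29 (Uqcr10, a small subunit of complex III) and -0.18 (Ndufs8, an iron-sulfur core subunit of complex I). They were Ndufa4, Ndufa5, Ndufa9, Ndufa12, Ndufa13, Ndufb2, Ndufb6, Ndufs5 and Ndufs8 by name in complex I, Uqcr10 in complex III, Cox6b1 and Cox8a in complex IV, and Atp5g1, which encodes the c ring subunit, and Atp5j in complex V. Groups did not overlap for 8 of the 81 nuclear members, all lower in TDD and all among the 19, where 4.9% of all genes were lower and 4.68% higher without overlap. The members that fell had main transcripts of 371 to 1445 bases (median 566) and median levels of 25.4 to 810 TPM, and those that were not called 315 to 2900 bases (median 729) and 1.35 to 1342 TPM. Of the 8 nuclear members with a fold change above 0, none was called, and the highest was Atp5g2 (0.28, q = 0.233).

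How many members passed depended on single mice. Without TDD mouse 1, whose nuclear mean was the highest of its group (6.77), 39 nuclear members were called. Without CD mouse 3, CD mouse 5, TDD mouse 3 or TDD mouse 4 there were 10, 12, 10 and 12. In TDD mouse 1, markers of B cells (5.27 CPM), T cells (21.4 CPM), Paneth cells and crypt proliferation (487 CPM) were the lowest of TDD. Its enterocyte (45718 CPM), smooth muscle (1993 CPM) and adipocyte (47.8 CPM) markers were the highest. The part of these markers in the count was not tested. No alternative turned the direction of any of the 19, and 7 passed in all 32 alternatives: Atp5j2, Cox6a1, Cox7a1, Ndufa12, Ndufb2, Ndufb4 and Ndufb6.

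The promoters of these genes were read from RefSeq (GRCm38.p6) to see what the members that fell have in common, since nuclear chain genes are known targets of the factors NRF1, GABPA of the ETS family, YY1 and the estrogen-related receptors (ERR). Windows of 300 bases, 250 before to 50 after each start, were found for 66 of the 81 tested nuclear members, including all 19 that fell, and were searched on both strands. The NRF1 motif, GCGCA and GCGC with any base between them, was in the windows of 17 of the 66 members (25.8%) against 4.6% of all 32851 windows. The ETS motif CCGGAAG was in 17 members (25.8%) against 8.86%, the YY1 motif AANATGGC in 17 (25.8%) against 6.05%, and the ERR motif TNAAGGTCA in 3 (4.55%) against 1.28%. Of the 19 members that fell, 5 held the NRF1 motif, 7 the ETS motif, 4 the YY1 motif and 1 the ERR motif, beside 12, 10, 13 and 2 of the other 47. Members were counted per gene, and all windows per window, whether or not their genes were tested, so these shares differ in unit. A match is a description of the letters and says nothing of binding.

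The stretches below, taken from those windows and ending before the first annotated base of the gene, show the 3 members with the largest falls and Ndufb6, which is called in both comparisons that involve SPF mice on TDD. They are written 5′ to 3′ on the strand of the gene, with motif matches in capitals. Cox7a1 lies at chr7:30183921-30184143, Ndufb4 at chr16:37654454-37654618, Cox6a1 at chr5:115348982-115349208 and Ndufb6 at chr4:40279422-40279671, the last 3 on the minus strand.
Cox7a1: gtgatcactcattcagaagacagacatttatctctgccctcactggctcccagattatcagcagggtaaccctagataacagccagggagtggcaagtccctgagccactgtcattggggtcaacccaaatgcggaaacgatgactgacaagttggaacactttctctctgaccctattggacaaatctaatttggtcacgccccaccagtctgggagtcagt
Ndufb4: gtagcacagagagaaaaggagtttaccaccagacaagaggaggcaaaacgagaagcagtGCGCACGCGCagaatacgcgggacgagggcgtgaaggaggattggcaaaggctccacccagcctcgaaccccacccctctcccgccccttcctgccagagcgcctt
Cox6a1: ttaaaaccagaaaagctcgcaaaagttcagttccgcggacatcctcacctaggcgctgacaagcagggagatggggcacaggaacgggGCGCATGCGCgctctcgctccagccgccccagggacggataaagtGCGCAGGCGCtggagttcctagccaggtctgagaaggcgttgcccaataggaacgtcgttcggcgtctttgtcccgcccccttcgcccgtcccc
Ndufb6: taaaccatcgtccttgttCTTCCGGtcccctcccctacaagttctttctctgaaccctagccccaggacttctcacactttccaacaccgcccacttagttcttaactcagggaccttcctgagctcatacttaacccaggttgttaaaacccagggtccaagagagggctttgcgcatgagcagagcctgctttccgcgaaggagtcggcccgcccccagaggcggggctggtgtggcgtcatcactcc
Cox6a1 holds 2 NRF1 motifs and Ndufb4 holds 1 in the bases shown, Ndufb6 holds an ETS motif that reads on the opposite strand, and Cox7a1, which fell the most, holds none of the 4 motifs in its window. Nearer the start than the bases shown, the window of Ndufb4 holds 2 more NRF1 motifs and an ERR motif, and that of Cox6a1 an ETS motif.

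Under ABX, the same test called a single mt- gene and no nuclear member between TDD and CD. This comparison asks what the diet does once the microbiota has been depleted. edgeR called 0 of 81 nuclear members (8 with an unadjusted p under 0.05, and 0 called in all 32 alternatives), where 1.02% of genes were called lower and 0.626% higher (1.64% in all). The median nuclear log2 fold change was -0.06 with 64 of 81 below 0, and the median over all genes tested was 0.00. For the members that fell the most in SPF mice, the log2 fold changes under ABX were -0.16 for Cox7a1 (q = 0.629), -0.19 for Ndufb4 (q = 0.348), -0.14 for Cox6a1 (q = 0.541), -0.20 for Atp5k (q = 0.306) and -0.18 for Atp5j2 (q = 0.291).

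The gene called was mt-Nd2, a core membrane subunit of complex I. It measured 3693, 3353, 3787, 3410 and 3400 CPM in CD with ABX and 2986, 2921, 2530.5, 2395 and 2511 CPM in TDD with ABX, without overlap, and its log2 fold change was -0.40 ± 0.10 (q = 0.0396). It passed in 18 of 32 alternatives, over which q ranged from 0.00102 to 0.105. Over all 13 mt- members the median log2 fold change was -0.11, with 10 below 0. mt-Nd4 did not overlap either (log2 fold change -0.28, q = 0.105), where 2.43% of all genes were lower and 2.35% higher without overlap, while mt-Nd6 had the highest value (0.22, q = 0.476).

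No member's response to the diet differed between SPF and ABX-treated mice in the test of the interaction. edgeR called 0 of 94 members, as did every alternative, where 0.0368% of genes were called, 0.0184% in each direction. At an unadjusted p under 0.05 there were 5 nuclear and 7 mt- members, among 1446 of all genes tested. The interaction on the log2 scale (the diet effect under ABX minus that in SPF mice) had a median of 0.08 over nuclear members, with 68 of 81 above 0, and of -0.29 over mt- members, with all 13 below 0, beside -0.01 over all genes. The highest nuclear value was that of Cox7a1 (0.62 ± 0.19, q = 0.294) and the lowest mt- value that of mt-Nd1 (-0.44 ± 0.17, q = 0.403). The 19 falls in SPF mice and 0 under ABX are therefore not shown to be different responses.

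ABX treatment itself was compared with SPF on each diet. On CD it left the chain near its SPF level. Of nuclear members, 1 was lower and 0 higher (7.37% of genes were called lower and 5.26% higher), and of mt- members edgeR called 0, with 0 at an unadjusted p under 0.05. Other fits also called 0 mt- members, except that 1 passed without CD mouse 2. Median log2 fold changes were -0.04 for nuclear members and 0.02 for mt- members. Groups overlapped for all 94 members, where 5.88% of all genes were lower and 3.86% higher without overlap. The member called was Sdhb (chr4:140961203-140979193, plus strand), the iron-sulfur subunit of complex II. It measured 261, 217, 269, 262 and 252 CPM in CD and 211, 198, 228, 204 and 241 CPM in CD with ABX, with overlap through CD mouse 2 (log2 fold change -0.22 ± 0.07, q = 0.0363), and it passed in 17 of 32 alternatives.

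On TDD, 4 nuclear members were higher with ABX, a smaller share than that of all genes, and 3 mt- members were lower. These ABX-treated mice were compared with the same 5 SPF mice on TDD that entered the diet comparison, so values from both share them. The 4 of 81 nuclear members make up 4.94%, with 0 lower (7.14% of genes were called higher and 8.22% lower, 15.4% in all), and the 3 of 13 mt- members 23.1%, with 0 higher. T cell markers were also lower with ABX on TDD, 3 of 5 passing the test (Cd3e, Cd3g and Trac). Epithelial markers passed in both directions. Higher with ABX were Fabp2 (log2 fold change 1.22, q = 0.000556), Anpep (0.80, q = 0.00854), Slc10a2 (2.65, q = 0.0014), Fabp6 (3.92, q = 0.0198) and the goblet cell marker Clca1 (0.65, q = 0.0124). Sis (-0.74, q = 0.0204), Apoa4 (-1.13, q = 0.0336) and the Paneth cell marker Mmp7 (-0.77, q = 0.0288) were lower. With ABX on CD, Fabp2 (1.2, q = 0.000543), Anpep (1.09, q = 0.00114), Slc10a2 (4.07, q = 9.83e-05) and Fabp6 (5.14, q = 0.00585) were also higher. Sis (-1.03, q = 0.00313), Apoa4 (-1.61, q = 0.00593), Cd3e, Cd3g and Trac were also lower on CD. Clca1 (0.03, q = 0.933) and Mmp7 (-0.05, q = 0.919) did not pass on CD. The part of these markers in the result was not tested. The median log2 fold change was 0.06 over nuclear members, with 63 of 81 above 0, and -0.25 over mt- members, with all 13 below 0, beside -0.03 over all genes.

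The nuclear members that rose were Cox7a1 (log2 fold change 0.50 ± 0.14, q = 0.0222), Atp5k (0.28 ± 0.09, q = 0.0438), Ndufb6 (0.21 ± 0.06, q = 0.0313) and Ndufs8 (0.17 ± 0.05, q = 0.0229). All 4 are among the 19 that were lower in these SPF mice on TDD than on CD. None of the 4 passed in all 32 alternatives: Atp5k passed in 21, Ndufb6 in 27, Cox7a1 in 29 and Ndufs8 in 30. With 1 mouse left out the number called went from 1 (without TDD mouse 3 or mouse 1 of TDD with ABX) to 6 (without CD mouse 2), and it was 2 without TDD mouse 2, 4 or 5 or mouse 3 of TDD with ABX. With ABX, Cox7a1 measured 41.6, 33.6, 39.2, 46.0 and 38.9 CPM on TDD, above each of the SPF values given earlier, which reached 32.9 CPM. Ndufb6, an accessory subunit of complex I, measured 31.6, 31.2, 26.9, 27.7 and 29.5 CPM in TDD and 37.3, 32.5, 33.9, 31.9 and 34.8 CPM in TDD with ABX, again without overlap. Atp5b did not overlap either (0.13, q = 0.18), where 5.97% of all genes were higher without overlap.

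Of the mt- members, mt-Nd1, a core subunit of complex I beside the quinone site, measured 5897, 5199, 5290, 5939 and 5961 CPM in TDD and 4991, 4456, 3881, 4250 and 3965 CPM in TDD with ABX. The groups did not overlap and the log2 fold change was -0.39 ± 0.12 (q = 0.0313). mt-Nd1 shares no word with another gene, so its counts are not divided with a copy. mt-Atp6 measured 8551, 7488, 8316, 8523 and 8608 CPM in TDD and 7372, 6823, 6546, 6236 and 6538 CPM with ABX (-0.31 ± 0.09, q = 0.0233), and mt-Nd4 5878, 5687, 6020.5, 6235 and 7113 CPM against 5367, 5268, 4864, 4792 and 5115 CPM (-0.28 ± 0.09, q = 0.0322). Both were lower in every ABX-treated mouse, as was mt-Co1 (-0.27 ± 0.10, q = 0.0706), where 5.05% of all genes were lower without overlap.

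The remaining mt- members ranged from -0.30 (mt-Atp8, q = 0.0643) to -0.16 (mt-Nd3, q = 0.576) and did not pass. With copies added to their genes, a step chosen after the data had been seen, the log2 fold change of mt-Nd3 went from -0.16 ± 0.18 to -0.23 ± 0.09 (q = 0.0716) and that of mt-Co2 from -0.24 ± 0.17 to -0.26 ± 0.09 (q = 0.0662), and the same 3 members passed. The number called was sensitive: 0 mt- members passed without TDD mouse 3 or 4 or without mouse 3, 4 or 5 of TDD with ABX, and with no filter on low counts, whereas DESeq2 called 6. None of these turned the direction of mt-Nd1, mt-Atp6 or mt-Nd4.

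**Figure D5:**
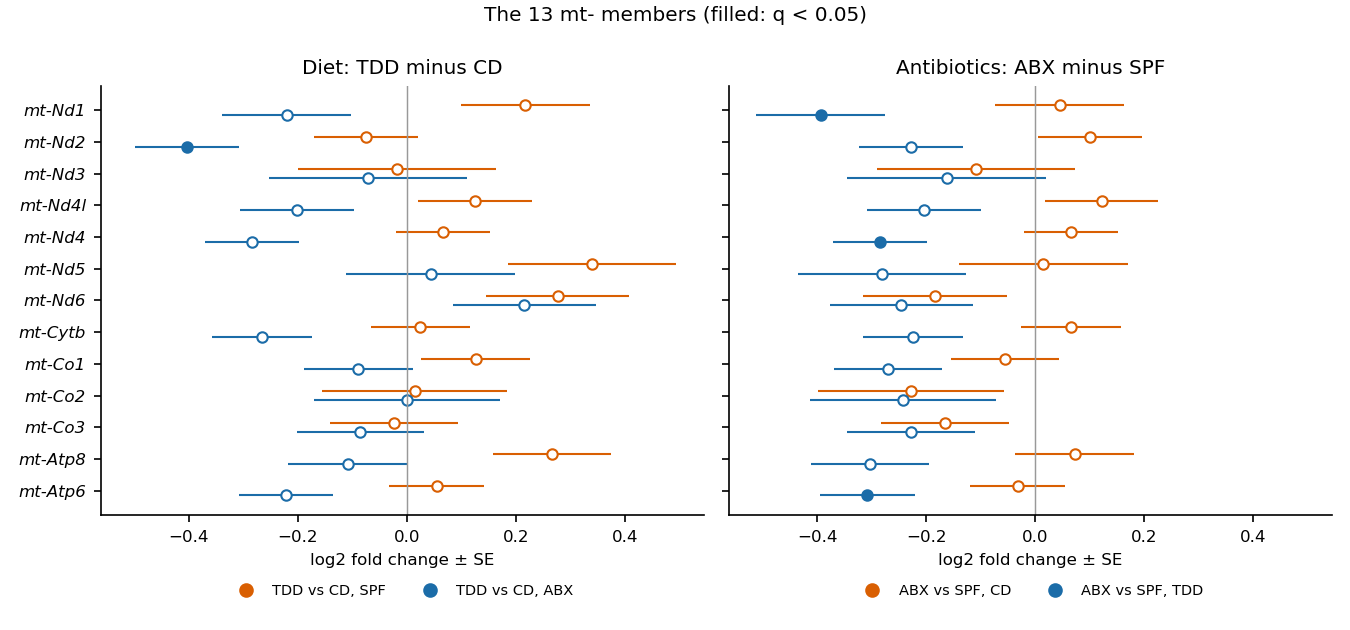
Log2 fold change and SE of the 13 mt- members for the diet (left) and for ABX (right), filled where q was under 0.05. For ABX on TDD (right, blue) all 13 lie between -0.39 and -0.16, and for the diet in SPF mice (left, orange) they lie between -0.08 and 0.34 with none called.

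Several subunits of complex IV have isoforms for different tissues, and not all forms of one subunit passed the test. In SPF mice the general form Cox4i1 measured 430 to 460 CPM on CD and 412 to 525 CPM on TDD, with a log2 fold change of 0.00 (q = 0.998). Its counterpart Cox4i2, known from lung and hypoxia, was below 1 CPM in all mice (0.05, q = 0.922). Cox7a2, the general form beside Cox7a1, had a log2 fold change of -0.13 on TDD (q = 0.359), and Cox7a2l, a factor of supercomplex assembly, 0.09 (q = 0.349). Cox6b1 (-0.28, q = 0.0284) and Cox8a (-0.27, q = 0.0403) fell. Cox6b2, the testis form, measured 2.001 to 5.85 CPM in CD and 2.40 to 3.22 CPM in CD with ABX (-0.58, q = 0.0745). Ndufa4 (-0.25, q = 0.0499) passed by a narrow margin, and in 11 of 32 alternatives, and Ndufa4l2, its hypoxia-induced relative, measured 0.63 to 1.16 CPM in TDD and 0.29 to 0.62 CPM in TDD with ABX without overlap (-0.67, q = 0.0731).

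Genes that build or feed the chain were counted from lists made up beside the members. Over all genes tested, 7.71% were lower and 6.65% higher for the diet in SPF mice, and 7.14% were higher for ABX on TDD. For the diet under ABX the shares were 1.02% lower and 0.626% higher, so a list with 0 called lies near them. Of 78 mitochondrial ribosomal protein genes, which translate the mt- mRNAs, 25 were lower and 0 higher in SPF mice on TDD (median log2 fold change -0.14), 0 were called under ABX, and 33 were higher and 0 lower with ABX on TDD (median 0.18). Mrpl49 went from 31.4 ± 1.45 CPM (SD, n = 5) in CD to 25.5 ± 1.49 CPM in TDD (-0.30 ± 0.05, q = 0.00113) and Mrps36 from 38.6 ± 3.30 to 30.4 ± 0.908 CPM (-0.34 ± 0.06, q = 0.00136). Mrps25 was 0.38 higher with ABX on TDD (q = 0.000566) and 0.25 higher with ABX on CD (q = 0.00824).

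Of 51 assembly factors, 11 were lower and 2 higher in SPF mice on TDD (median -0.12) and 12 were higher with ABX on TDD, against 7.71%, 6.65% and 7.14% of all genes, so that the 2 that were higher lie under the share over all genes. Coa3, which helps build complex IV, went from 61.5 to 45.9 CPM on TDD (-0.42 ± 0.07, q = 0.000328) with no overlap, and was 0.35 higher with ABX on TDD (q = 0.00243). Ndufaf4, which helps build complex I, was 0.49 higher with ABX on CD (q = 0.00486) and 0.37 higher on TDD (q = 0.0236), and Tmem70, which helps build ATP synthase, was 0.29 higher on TDD (q = 0.0104). Of 37 genes for replication, transcription and translation of mitochondrial DNA, 5 were lower and 1 higher on TDD in SPF mice (7.71% and 6.65% of all genes) and 10 were higher with ABX on TDD (7.14%). Tufm, the mitochondrial elongation factor Tu, was lower by the diet (-0.33 ± 0.07, q = 0.00507) and higher with ABX on TDD (0.37 ± 0.07, q = 0.00328). Grsf1, which binds mt- RNA, was the member of this list that rose on TDD (0.20 ± 0.04, q = 0.00211).

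Of 18 chain components with other names, 7 were lower in SPF mice on TDD (median -0.15, 7.71% of all genes), 9 higher with ABX on TDD (median 0.21, 7.14%) and 1 lower with ABX on CD (7.37%). Coq4, needed for ubiquinone synthesis, had the largest fall, from 21.7 to 14.6 CPM (-0.57 ± 0.08, q = 0.000235), and Atpif1, the inhibitor of ATP synthase, fell from 213 to 170.0 CPM (-0.33 ± 0.06, q = 0.000897). Ndufab1, the acyl carrier subunit of complex I, fell by 0.33 (q = 0.00202). Of 13 genes of the tricarboxylic acid cycle, only Mdh2 was called on TDD in SPF mice (-0.29 ± 0.09, q = 0.0318), a share near the 7.71% of all genes called lower, and Mdh2 (0.27, q = 0.0373) and Fh1 (0.16, q = 0.042) were higher with ABX on TDD. On CD, ABX lowered Idh3g (-0.16, q = 0.0444).

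Of 11 regulators of mitochondrial biogenesis, 1 was higher and 1 lower on TDD in SPF mice, 1 was lower on TDD under ABX, and 2 were lower with ABX on each diet. Over all genes 6.65% were higher and 7.71% lower on TDD in SPF mice, 1.02% lower on TDD under ABX, and 7.37% and 8.22% lower with ABX on CD and on TDD, so that counts this small say little of the list. Ppargc1a, the coactivator PGC-1alpha, was lower with ABX on CD (113 to 74.7 CPM, -0.60 ± 0.14, q = 0.00941) and on TDD (128 to 82.3 CPM, -0.64 ± 0.14, q = 0.00697). Ppard was lower in all 4 comparisons, from -0.37 (q = 0.02) for the diet in SPF mice to -0.49 (q = 0.00444) for ABX on TDD. Ppara rose on TDD in SPF mice, from 26.7 to 40.3 CPM (0.60 ± 0.14, q = 0.0066). These 3 are the genes of that list with the lowest q.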

How the data were processed

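Poly-A RNA was sequenced from 20 mice. The authors pseudoaligned reads with kallisto 0.44.0 to GRCm38 and deposited estimated counts per gene, already whole numbers, and TPM per transcript, which were summed here per gene through GENCODE M21. For Atp5a1, Ndufs3 and Uqcrc1 the deposited gene count is 2 times the sum over transcripts, which leaves their fold changes unaffected. The share of counts made up by nuclear members includes these doubled counts. edgeR 4.0.16 (R 4.3.3) was fitted to all 4 groups at once, with TMM scaling and robust quasi-likelihood dispersion, on the 16306 genes that reached 0.5 CPM in any mouse. The study names iDEP with a false discovery rate of 0.05 and a 2-fold limit but no test. Here calls are at q under 0.05, Benjamini-Hochberg adjusted over all genes tested, and the 2-fold count is given beside them. SE is the log2 fold change divided by the root of F. On simulated counts the same fit recovered most genes changed by 2-fold. Changes as small as those of most members were not simulated, so detection of such changes was not tested. Samples were grouped by GEO's labels. Nothing says whether mice shared cages, so p-values cover the spread between these mice. Library totals of 36676963 to 58662617 set the counting error, which the fit includes.

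Members and gene lists were chosen with earlier results of these data known. Genes named were all mt- members, up to 5 rises and 5 falls called per comparison, the nuclear member of each complex with the highest median TPM, tissue isoforms, and the 3 genes of lowest q per list. Other members named that fall outside this rule were picked after their values were seen. Same-numbered mice of different groups did not deviate together (median correlation -0.02 over 30 pairs), so numbers were not used as pairs. Alternatives were limma 3.58.1, DESeq2 1.42.0, other scalings, filters and blocks, and each mouse left out.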

Additional observations from a re-analysis of the deposited data

Results flagged for a closer look

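In 152 sets of 5 mice (a tested named member, or a mean or share over members, in 1 group), 8 held a mouse far from the other 4 by Dixon's test, where chance at 1 in 20 gives 7.6. In TDD these were mouse 1, highest for Cox4i1 (525.5 CPM) and Ndufb4 (13.03 CPM), mouse 4, highest for Ndufs8 (62.37 CPM), and mouse 2, lowest for mt-Atp6 (7488 CPM). In CD they were mouse 2, lowest for Cox6a1 (255.5 CPM), and mouse 3, highest for Ndufa4 (182.7 CPM). In the ABX-treated groups they were mouse 4 of TDD with ABX, highest for Cox7a2l (176.9 CPM), and mouse 1 of CD with ABX, highest for mt-Nd5 (3407 CPM).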

How the results depend on the processing

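No member called turned its direction under any alternative. The mt- minus nuclear difference for ABX on CD, 0.03 and within the spread, ranged from -0.03 (without CD mouse 5) to 0.07 with 1 mouse left out and so has no settled sign. At a 2-fold limit the numbers called were 0 in every comparison. For the diet in SPF mice, 42 nuclear members passed with library totals alone, 9 with the compared groups fitted alone and 53 with limma on log2(TPM + 1), and 10 to 39 with 1 mouse left out. For the diet under ABX, 3 mt- members passed with DESeq2. With no filter, with the groups fitted alone or with limma on log2(TPM + 1) there were 0, and 0 to 1 with 1 mouse left out. For ABX on CD, 3 nuclear members passed with library totals alone, 0 with RLE scaling, scaling without mt- genes, no filter or the groups fitted alone, and 0 to 2 with 1 mouse left out, while 0 to 1 mt- members passed. For ABX on TDD, 29 nuclear members passed with a limma fit and 1 to 6 with 1 mouse left out (1 without TDD mouse 3 or mouse 1 of TDD with ABX, 6 without CD mouse 2). Of mt- members, 5 passed with upper-quartile scaling or the groups fitted alone and 6 with DESeq2. With no filter or with limma on log2(TPM + 1) there were 0, and 0 to 4 with 1 mouse left out. The causes were not tested. The mt- minus nuclear differences moved by less than 1 SD.

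The replicate number as a block is not a pairing in these data: 1 of 20 mice correlated best with its own number. With the replicate block, 16 nuclear members passed for the diet in SPF mice, 0 mt- members for the diet under ABX, and 3 nuclear and 2 mt- members for ABX on TDD.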
